A study of Mus musculus with 12 samples.

Results

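Btg1, Btg2, Zfp36, Zfp36l1 and Zfp36l2 encode proteins that speed the decay of mRNA. They were taken from the deposited count table by matching its Ensembl identifiers to these mouse symbols in the GRCm38 annotation, and all 5 were found, each in 1 row, among 55573 gene rows. The table came from extensor digitorum longus (EDL), a fast hindlimb muscle, of C57BL/6 mice, and all groups shared that strain and muscle, with no allele or treatment named in the labels. RNA was sequenced in 12 libraries, 3 for each of 4 groups: 1 myofiber alone (a single fiber), 5 fibers pooled, 20 fibers pooled, and the whole EDL muscle. Single fibers were lysed directly in the buffer of the SMART-Seq HT kit, a full-length cDNA method for low input, while RNA of whole muscle came from a Trizol extraction before the same kit. The labels make no separate statement on lysis of the pools and give no age or sex. Isolation of fibers and the way RNA was obtained changed together, so their shares in any difference from whole muscle cannot be told apart. Nothing in the labels says that a group's 3 libraries are from different mice, and the p-values therefore rest on the spread among libraries, which may be technical.

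Most mRNAs lose their poly(A) tail before they are destroyed, and the Ccr4-Not complex removes much of that tail. Btg1 and Btg2 belong to the Btg/Tob family, whose members bind the Caf1 deadenylase subunits of Ccr4-Not and bring them to mRNA. Zfp36 (also called tristetraprolin), Zfp36l1 and Zfp36l2 are zinc finger proteins that bind AU-rich elements in 3′ UTRs and recruit Ccr4-Not there. Btg2 and Zfp36 are known as immediate early genes, switched on quickly by many stimuli, and Zfp36 lowers its own mRNA through AU-rich elements. In muscle, Zfp36 family proteins are known for their action on mRNA in quiescent satellite cells, and Btg family proteins for restraint of cell proliferation.

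The AU-rich elements are shown first because the Zfp36 proteins bind them and because the members differ in how many they carry. For each gene the longest 3′ UTR among its protein-coding GENCODE transcripts (GRCm38) was used. In its 3′ UTR Zfp36 held 3 copies of the heptamer TATTTAT in 774 bases. Only 1.51% of the 1196 3′ UTRs within 10% of that length held as many. Zfp36l1 held 3 copies in 1835 bases (4.8% of similar 3′ UTRs held as many), Zfp36l2 3 copies in 1822 bases (4.88%), Btg2 1 copy in 2199 bases (43.7%) and Btg1 0 copies in 4166 bases. The shorter pentamer ATTTA, which lies inside the heptamer, occurred 11 times in Btg1, 5 times in Btg2, 3 times in Zfp36, 9 times in Zfp36l1 and 5 times in Zfp36l2. These searches were on the transcript strand. A match is a description of the letters and not a measured binding site. One site of each member follows, 24 bases long, with the heptamer, or for Btg1 the pentamer, in capitals.
Zfp36 3′ UTR site: ttTATTTATgacgacttTATTTAT
Zfp36l1 3′ UTR site: tttaacttatcaaaacgTATTTAT
Zfp36l2 3′ UTR site: tgaaaaactatttaactTATTTAT
Btg2 3′ UTR site: tttttaaaatgaagagcTATTTAT
Btg1 3′ UTR site: cttggggatggattatggaATTTA

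Promoters from RefSeq (GRCm38.p6) matched 4 of the 5 members, and 3 are shown because Btg2, Zfp36 and Btg1 had unlike levels in the data below. The windows searched ran from 250 bases before to 50 bases after the gene start, on both strands, and the 250 bases before the start are printed. The start is the one in RefSeq. For Zfp36 it lies inside the GENCODE gene, whose annotated span begins further upstream, so its printed stretch is upstream of the RefSeq start and not of the GENCODE one. Capitals mark matches to the motifs searched. Btg2 held a full cAMP response element (CRE, TGACGTCA) at -166 from the start, found in 1.79% of 32851 promoters, and an EGR motif (GCGNGGGCG) at -131, found in 5.55%. Zfp36 held an EGR motif at -105 and a CArG box, the motif of serum response factor, at -58, found in 1.63%. Btg1 held 2 copies of the CRE core TGACG, which also lies inside the full CRE and occurred in 20.8% of promoters, at -187 and -103. It also held a FOXO motif (TGTTTAC, 3.65%) at -204 and a TATA motif (TATAAA, 13.6%) at -26. Zfp36l1, not printed, held an AP-1 motif (TGANTCA, 7.81%) at -129 and a TATA motif at -29. An NF-kB motif, found in 4.51% of promoters, matched in 0 of the 4 windows.
Btg2 promoter, chr1:134079156-134079405, minus strand: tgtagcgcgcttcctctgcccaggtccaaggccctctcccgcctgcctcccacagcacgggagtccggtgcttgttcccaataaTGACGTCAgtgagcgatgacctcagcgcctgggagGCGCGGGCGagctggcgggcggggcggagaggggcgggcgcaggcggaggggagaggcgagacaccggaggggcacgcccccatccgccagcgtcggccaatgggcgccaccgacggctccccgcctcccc
Zfp36 promoter, chr7:28379229-28379478, minus strand: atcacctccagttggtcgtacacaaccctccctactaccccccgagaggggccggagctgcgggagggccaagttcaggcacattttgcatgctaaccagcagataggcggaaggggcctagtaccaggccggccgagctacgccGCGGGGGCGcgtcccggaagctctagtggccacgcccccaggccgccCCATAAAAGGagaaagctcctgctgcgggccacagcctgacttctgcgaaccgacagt
Btg1 promoter, chr10:96616751-96617000, plus strand: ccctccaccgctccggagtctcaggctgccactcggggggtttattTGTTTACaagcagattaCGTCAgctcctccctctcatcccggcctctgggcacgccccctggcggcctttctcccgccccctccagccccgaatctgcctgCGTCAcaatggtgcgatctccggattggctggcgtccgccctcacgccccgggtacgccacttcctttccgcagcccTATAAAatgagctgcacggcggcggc

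Some libraries stood apart from the others of their group. The totals of counted reads ran from 4702823 to 27787120 per library. Reads on 1504 olfactory, vomeronasal and taste receptor genes, which muscle is not known to use, served as a measure of background. From 2.33% to 4.85% of these genes had a read in whole muscle and 4.85% to 26.7% in single fibers, but 4.59% to 68.8% in pools of 5 and 78.7% to 97.3% in pools of 20. Pool of 20 replicate 2 had 20.9% of its reads on a single predicted gene, Gm10800, and the largest TMM factor, 2.95. Pool of 5 replicates 1 and 2 had 49.0% and 54.8% mitochondrial reads and background on 58.1% and 68.8% of the receptor genes, against 13% and 4.59% in replicate 3. All 11 fast myofiber markers, such as Acta1 and Ckm, had reads in every group. Endothelial, fibroblast, adipocyte, erythroid and Schwann cell markers summed higher in all 3 whole muscle libraries than in any fiber library. The 10 endothelial markers summed to 875 to 1041 CPM there, against 1.56 to 5.09 CPM in single fibers, 75.1 to 637 CPM in pools of 5 and 70.6 to 543 CPM in pools of 20. Most of the whole muscle sum was Fabp4, which averaged 679 CPM there and 146 CPM in pools of 5. Flt1 (65.8 and 16.1 CPM) and Cdh5 (42.6 and 29.7 CPM) averaged higher in pools of 5 than in whole muscle. The other endothelial markers averaged lower. The 8 fibroblast markers summed to 3343 to 3757 CPM in whole muscle and to 10.6 to 492 CPM in the fiber libraries. The 6 satellite cell markers summed to 31.1 to 190 CPM in the fiber libraries and 41.9 to 54.1 CPM in whole muscle, with Sdc4 holding most of the sum in single fibers (mean 119 CPM, against 19.0 CPM in whole muscle). The defining markers Pax7 (0.452 and 2.09 CPM), Myf5 (0.551 and 2.30 CPM) and Calcr (0.445 and 1.79 CPM) were lower in single fibers than in whole muscle. In pools of 5 and pools of 20, Pax7 (2.84 and 4.85 CPM) and Calcr (2.57 and 4.24 CPM) averaged higher than in whole muscle. Myf5 (0.819 and 1.80 CPM) averaged lower there. Pericyte markers overlapped, at 38.9 to 385 CPM in pools of 5 against 301 to 315 CPM in whole muscle.

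Levels are given as CPM, counts scaled to a common library total after correction by TMM, a method that lines up the bulk of genes between libraries. Differences are log2 fold changes from edgeR's quasi-likelihood test over all genes, and a gene was called at a Benjamini-Hochberg adjusted p under 0.05. Isolated fibers against whole muscle means the average of the 3 fiber groups against whole muscle, fitted on all 12 libraries, and pairs of groups were fitted on the 6 libraries of each pair. The 3 pairwise comparisons with whole muscle share the same 3 whole muscle libraries, so they are not independent of each other.

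**Figure D1:**
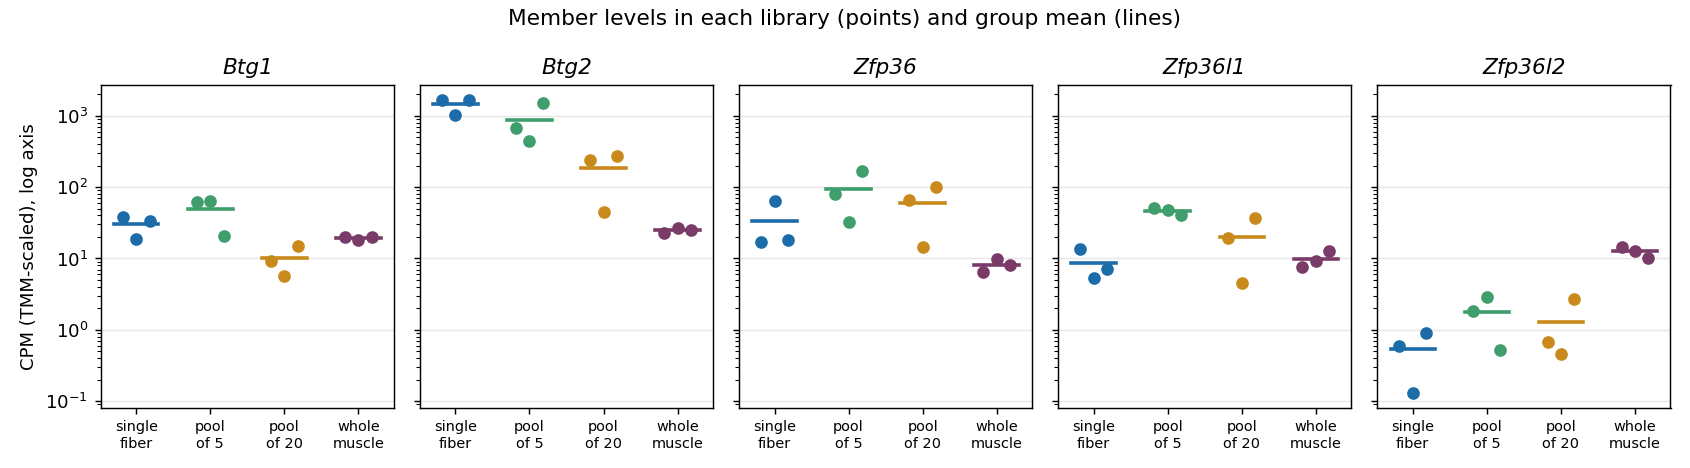
Level of each of the 5 genes in the 12 libraries, as TMM-scaled CPM on a log axis, with points for libraries and lines for the mean of the 3 libraries of a group. All 9 fiber libraries lie above whole muscle for Btg2 and Zfp36 and below it for Zfp36l2, while Btg1 and Zfp36l1 overlap it.

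Btg2 rose in isolated fibers, and it rose in each kind of fiber library. Zfp36 rose as well, by a smaller factor, and Zfp36l2 fell. Btg1 and Zfp36l1 did not pass the edgeR test in that comparison. DESeq2 called Zfp36l1 as well (1.11, adjusted p = 0.0471), with 28.9% of all genes called. The median over all genes with a read in that DESeq2 fit was 2.14, above the Zfp36l1 value. Of the 5 members 3 were called in isolated fibers against whole muscle, 2 higher and 1 lower, where 15.2% of the 22110 genes tested were called. By edgeR the median log2 fold change was 1.03 over the members and 0.40 over all genes tested.

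Btg2, whose product restrains proliferation and brings deadenylases to mRNA, lies on chromosome 1 (GRCm38, chr1:134075170-134079120, minus strand; ENSMUSG00000020423). It stood at 1682, 1013 and 1668 CPM in single fibers 1 to 3. In the pools of 5 it stood at 681, 437 and 1489 CPM, in the pools of 20 at 237, 45.0 and 270 CPM, and in whole muscle at 22.8, 26.6 and 24.8 CPM. All 9 fiber libraries were above all 3 whole muscle libraries, the lowest being pool of 20 replicate 2, the library rich in Gm10800. Single fibers and pools of 20 did not overlap, while pool of 5 replicate 3 lay among the single fibers. The log2 fold change in isolated fibers was 4.64 (SE 0.83, edgeR adjusted p = 0.00130), a 24.9-fold difference. It was 5.73 in the 4 fiber libraries with background on at most 50% of receptor genes. These were the 3 single fibers and pool of 5 replicate 3, so that value holds no pool of 20 and is not a like-for-like comparison. Without pool of 20 replicate 2 alone the log2 fold change was 4.78.

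The Btg2 difference was 5.85 (SE 0.38, edgeR adjusted p = 2.34e-04) on the log2 scale in single fibers. It was 5.05 (SE 0.56, adjusted p = 0.00565) in pools of 5 and 3.16 (SE 0.66, adjusted p = 0.00117) in pools of 20. Between fiber groups it was higher in single fibers than in pools of 20 by 2.71 (SE 0.81, edgeR adjusted p = 0.0189). In that comparison Btg2 was the only member called, among 36.1% of 16978 genes tested. The call was lost on leaving out any single fiber or pool of 20 replicate 1 or 3 (adjusted p 0.0534 to 0.104), with log2 values of 2.88 to 3.20. Total reads, background reads and fast myofiber markers (182986 to 322986 CPM summed in single fibers, 17860 to 114403 CPM in pools of 20) also differed between these groups, and their part in the difference was not tested.

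Btg1, the close relative of Btg2, lies on chromosome 10 (chr10:96617006-96622809, plus strand; ENSMUSG00000036478). Its levels were 37.7, 18.6 and 33.6 CPM in single fibers and 62.4, 64.7 and 20.3 CPM in pools of 5. They were 9.22, 5.61 and 15.2 CPM in pools of 20 and 19.7, 18.4 and 19.8 CPM in whole muscle. By TMM-scaled CPM, pools of 5 were above whole muscle and pools of 20 below it, and single fibers overlapped it. The log2 difference in isolated fibers was 0.35 (SE 0.44, edgeR adjusted p = 0.660), and with library totals in place of TMM it was -0.39. Against whole muscle Btg1 stood at 0.60 (adjusted p = 0.201) in single fibers, 1.30 (adjusted p = 0.128) in pools of 5 and -0.63 (adjusted p = 0.144) in pools of 20. Without pool of 5 replicates 1 and 2 the value in pools of 5 was -0.10, where the lone library left is assumed to vary like the others. With pool of 20 replicate 2 left out the fall in pools of 20 was called at -0.61 (adjusted p = 0.0427). It was also called without pool of 20 replicate 3 (-0.96, adjusted p = 0.0348). Rises were called in single fibers without replicate 2 (0.87, adjusted p = 0.00634) and in pools of 5 without replicate 3 (1.76). DESeq2 called the rise in pools of 5 too (1.41, adjusted p = 0.0486), and with it all 5 members, beside 16.3% of genes. The median over all genes with a read in that DESeq2 fit was 2.20, above the Btg1 value. In pool of 20 replicate 2 Btg1 lay within the density of the receptor genes, at or under their 99th percentile of reads per kilobase.

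Zfp36, which binds AU-rich elements and directs decay of cytokine mRNAs, lies on chromosome 7 (chr7:28376784-28380253, minus strand; ENSMUSG00000044786). It stood at 16.9, 64.3 and 18.3 CPM in single fibers, and at 79.5, 32.6 and 167 CPM in pools of 5. In the pools of 20 it stood at 65.4, 14.6 and 100 CPM, against 6.51, 9.92 and 8.21 CPM in whole muscle. All 9 fiber libraries were above whole muscle, but the libraries of each fiber group spread over 3.79-fold to 6.84-fold and the fiber groups overlapped. The log2 fold change in isolated fibers was 2.79 (SE 0.69, edgeR adjusted p = 0.0125), a 6.93-fold difference. This call did not hold without whole muscle replicate 1 (2.58, adjusted p = 0.0686) or replicate 3 (2.76, adjusted p = 0.0583). In the 4 fiber libraries of low background, which hold no pool of 20, the log2 fold change was 2.98. A predicted gene on the opposite strand, Gm44710, overlaps Zfp36, and 4.21% of its 50-base windows are in other transcripts.

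The Zfp36 difference from whole muscle was 1.93 (SE 0.52, edgeR adjusted p = 0.0244) in single fibers. It was 3.41 (SE 0.58, adjusted p = 0.0188) in pools of 5 and 3.13 (SE 0.56, adjusted p = 4.11e-04) in pools of 20. Leaving out any whole muscle library ended the call in single fibers (adjusted p 0.0891 to 0.111), and scaling by library totals gave 0.79 (adjusted p = 0.183). No difference between fiber groups passed the test for Zfp36, with -1.47 (SE 0.68) between single fibers and pools of 5.

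Zfp36l1, a relative with the same zinc finger fold, lies on chromosome 12 (chr12:80107754-80113013, minus strand; ENSMUSG00000021127). The annotated antisense gene Gm26669 overlaps it, and 54.4% of its 50-base windows are also in another annotated transcript. Whether the counting used strand is not given in the sources used here, so reads of the overlapping genes may be mixed or left out and the Zfp36l1 level is uncertain. Gm26669 itself had 0 to 4 reads per library. Zfp36l1 stood at 13.7, 5.26 and 7.04 CPM in single fibers, 50.3, 48.1 and 41.0 CPM in pools of 5, 19.4, 4.55 and 36.6 CPM in pools of 20 and 7.51, 9.21 and 12.8 CPM in whole muscle. Only the pools of 5 stood wholly above whole muscle. They also stood above every single fiber and pool of 20 library.

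In isolated fibers the Zfp36l1 difference was 1.03 (SE 0.51, edgeR adjusted p = 0.167). It was 2.17 (SE 0.32, adjusted p = 0.0141) in pools of 5 and 1.29 (SE 0.49, adjusted p = 0.0404) in pools of 20. The call in pools of 20 was lost without pool of 20 replicate 3 (0.59, adjusted p = 0.290), whole muscle replicate 1 (0.83) or whole muscle replicate 2 (1.31). In single fibers the value was -0.23 (SE 0.44, adjusted p = 0.709), and without single fiber 2 it was 0.05. Single fibers were 2.47 below pools of 5 on the log2 scale (SE 0.50, edgeR adjusted p = 0.165). That was not called, but without pool of 5 replicate 3 it was (adjusted p = 0.0326).

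Zfp36l2, the remaining relative, known for its role in blood cell and germ cell development, lies on chromosome 17 (chr17:84183931-84187947, minus strand; ENSMUSG00000045817). It stood at 14.5, 12.9 and 10.3 CPM in whole muscle, from 187, 361 and 304 reads. In single fibers it stood at 0.584, 0.130 and 0.891 CPM, in pools of 5 at 1.84, 2.89 and 0.527 CPM and in pools of 20 at 0.683, 0.455 and 2.69 CPM. The fiber libraries held 2 to 57 reads of it, and all 9 were below all 3 whole muscle libraries. In 2 of 3 single fibers and 2 of 3 pools of 20 its reads per kilobase lay within the receptor gene background. In isolated fibers it fell by 3.56 on the log2 scale (SE 0.56, edgeR adjusted p = 4.33e-04), an 11.8-fold difference. In the 4 fiber libraries of low background, which hold no pool of 20, it fell by 4.73.

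Zfp36l2 fell by 4.60 in single fibers (SE 0.67, edgeR adjusted p = 0.00311), by 2.94 in pools of 5 (SE 0.62, adjusted p = 0.0320) and by 2.90 in pools of 20 (SE 0.51, adjusted p = 3.59e-04). The summed endothelial, fibroblast and adipocyte markers were also lower in every fiber library than in whole muscle, for adipocyte markers 0 to 9.55 CPM against 819 to 1037 CPM. Taken singly, only Fabp4 and Esam of the endothelial markers were lower in every fiber library. The other endothelial markers overlapped whole muscle, such as Pecam1, with up to 46.9 CPM in fiber libraries and 39.1 to 42.3 CPM in whole muscle. The part of these cell types in the fall of Zfp36l2 was not tested. In such bulk samples fewer cells of a type and less RNA per cell cannot be told apart.

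By pair of groups, 3 members were called in single fibers against whole muscle (2 higher, 1 lower), where 33.6% of genes tested were called. In pools of 5 against whole muscle 4 were called (3 higher, 1 lower) beside 8.85% of genes, and in pools of 20 again 4 (3 higher, 1 lower) beside 43.9% of genes. With so many genes called, the shares in single fibers and pools of 20 say little on their own. Leaving out any 1 whole muscle library left 0 members called in pools of 5, and leaving out pool of 5 replicate 1 left 1. Between single fibers and pools of 5, edgeR called 0 members beside 0.0157% of genes. At an unadjusted p under 0.05 there was 1, beside 8.91% of genes, and DESeq2 called 1, beside 4.93% of genes. Both were Zfp36l1. Between pools of 5 and pools of 20 it called 0 members and 0% of genes, with 2 members, Btg1 and Btg2, at an unadjusted p under 0.05 (8.78% of genes) and 0 by DESeq2 (0.433% of genes).

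**Figure D2:**
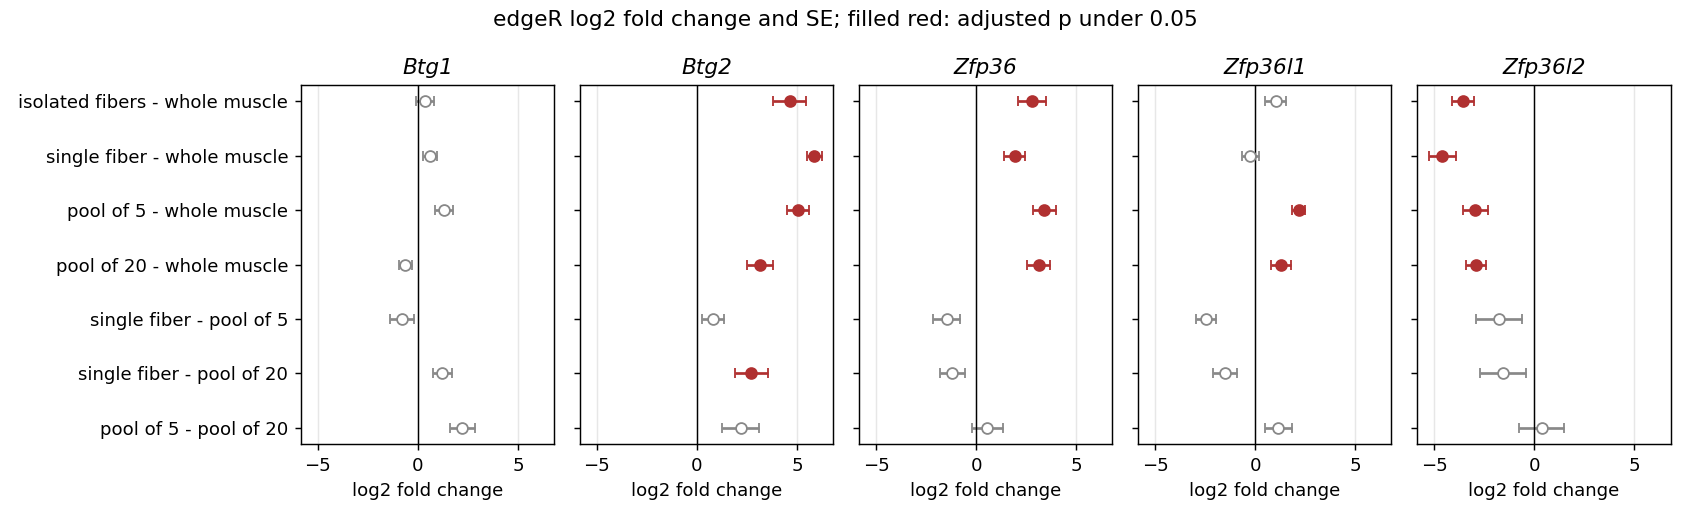
edgeR log2 fold change of each gene (first group minus second) in 7 comparisons, with bars for the SE and filled red points for an adjusted p under 0.05. Btg2, Zfp36 and Zfp36l2 are called in all comparisons with whole muscle, and Btg1 in none.

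Levels of different genes were compared as CPM per kilobase of exon. For Zfp36 the exon length used, 3470 bases, covered its whole annotated gene, so its values per kb may be too low in every group. The rank of Zfp36 among the 5 genes depends on that length. In whole muscle Btg2 was highest at 9.01 ± 0.69 CPM per kb (SD, n = 3). Btg1 (3.66 ± 0.15), Zfp36l2 (3.55 ± 0.60) and Zfp36l1 (3.29 ± 0.91) did not differ beyond their spread. Zfp36 had the lowest mean, 2.37 ± 0.49 CPM per kb, and overlapped Zfp36l1. In single fibers the order was Btg2 (530 ± 139), Zfp36 (9.56 ± 7.77), Btg1 (5.68 ± 1.91), Zfp36l1 (2.90 ± 1.49) and Zfp36l2 (0.152 ± 0.108). There Zfp36 and Btg1 overlapped. In pools of 5 Zfp36 (26.8 ± 19.6) had the next highest mean below Btg2 (317 ± 201), but it overlapped Zfp36l1 (15.5 ± 1.6) and Btg1 (9.31 ± 4.73) and lay below both in replicate 2. Zfp36l2 was again lowest at 0.496 ± 0.335 CPM per kb. Pools of 20 had the same order of means, from Btg2 at 67.1 ± 44.3 to Zfp36l2 at 0.362 ± 0.349 CPM per kb. Of the per-kilobase sum of the 5 genes, Btg2 made 40.4% to 42.5% in whole muscle, 68.8% to 76.0% in pools of 20, 80.5% to 89.2% in pools of 5 and 93.9% to 97.7% in single fibers. These 4 ranges did not overlap.

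A ratio of 2 members within a library needs no scaling between libraries. The Btg2 to Btg1 read ratio was 1.15, 1.44 and 1.25 in whole muscle. It was 44.6, 54.5 and 49.6 in single fibers, 10.9, 6.75 and 73.1 in pools of 5 and 25.6, 7.97 and 17.8 in pools of 20. All fiber libraries exceeded whole muscle, and the mean difference on the log2 scale was 4.21. The Zfp36 to Zfp36l2 ratio was 0.451 to 0.800 in whole muscle and 11 to 396 in fiber libraries, a mean log2 difference of 6.32. Both gave p = 0.00455 in an exact two-sided permutation test of 9 against 3 libraries, the smallest p that its 220 permutations allow, and 0.00682 after adjustment over the 3 ratios tested. For Zfp36 to Zfp36l2 the separation followed from the single genes, since by TMM-scaled CPM Zfp36 was higher and Zfp36l2 lower in all 9 fiber libraries. Its p therefore adds no support to those results. The fiber libraries held only 2 to 57 reads of Zfp36l2, and the ratio of 396 rests on 2. The Zfp36 to Zfp36l1 ratio was 0.640 to 1.08 in whole muscle and 0.677 to 12.2 in fiber libraries. Its log2 difference of 1.61 did not pass the exact permutation test (adjusted p = 0.0591), while without single fiber 1, single fiber 2 or pool of 5 replicate 2 it did (1.33 to 1.85, adjusted p 0.0121 to 0.0485).

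**Figure D3:**
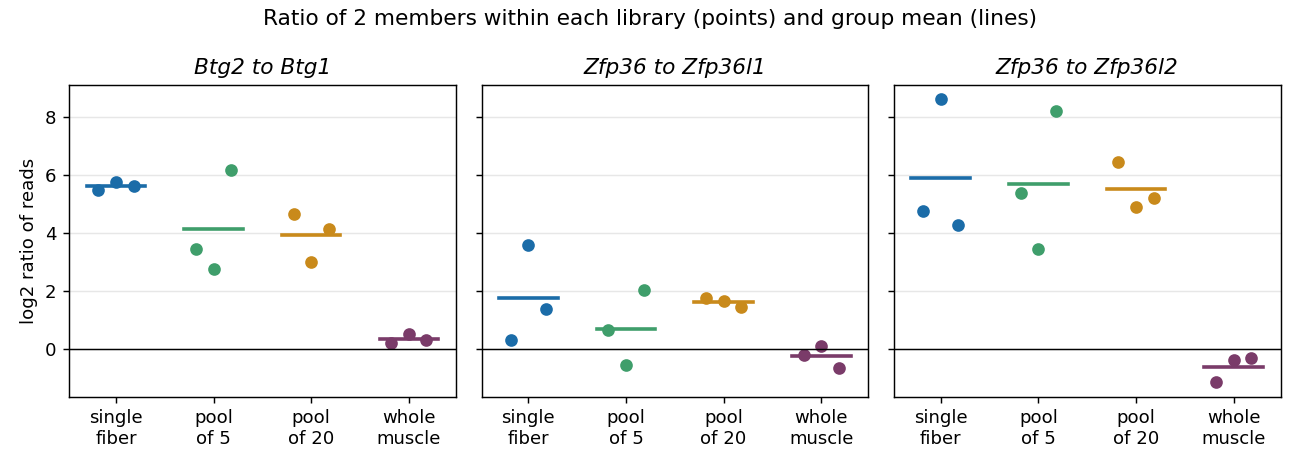
log2 ratio of the reads of 2 members within each library (points) with the mean of each group (lines). Btg2 to Btg1 and Zfp36 to Zfp36l2 are higher in all 9 fiber libraries than in whole muscle, and Zfp36 to Zfp36l1 overlaps it in 1 pool of 5.

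The genes around the members were counted from lists of pathway genes in isolated fibers against whole muscle, where 15.2% of all genes tested were called and the median of all genes was 0.40 on the log2 scale. Among relatives of the members, 0 of the 4 tested were called by edgeR (0 at an unadjusted p under 0.05), with a median of -0.10. Tob1, the most abundant relative, was at 121 ± 58 CPM in fibers and 189 ± 7 CPM in whole muscle (-0.66, SE 0.50), and Tob2 was at 73.1 ± 28.6 and 52.8 ± 2.2 CPM. Of 14 deadenylase subunits 1 rose and 1 fell, a share near the 15.2% of all genes, with a median of -0.14. Pan3, a subunit of the Pan2-Pan3 deadenylase, rose by 1.43 (SE 0.43, adjusted p = 0.0326), and Cnot11 of Ccr4-Not fell by 1.91 (SE 0.33, adjusted p = 8.87e-04). Pan3 was not called on leaving out single fiber 1 or 3, pool of 5 replicate 1 or 2, pool of 20 replicate 1 or 3, or any whole muscle library. Cnot7, a Caf1 subunit of the kind that Btg proteins bind, was at 36.2 ± 27.1 CPM in fibers and 42.7 ± 6.7 CPM in whole muscle (-0.48, SE 0.44). Cnot8 of the same list was at 27.4 ± 26.9 and 41.9 ± 4.3 CPM (-0.83, SE 0.52).

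Of 27 decapping and exonuclease genes tested 1 rose and 0 fell, with a median of 0.02. It was Ddx6, a helicase that links deadenylation to decapping, at 66.8 ± 22.9 CPM in fibers and 13.6 ± 1.5 CPM in whole muscle (2.29, SE 0.50, adjusted p = 0.00602). The call for this list fell to 0 without any 1 whole muscle library and reached 8, of which 7 were lower, without pool of 5 replicate 3. Among 12 other mRNA stability proteins 1 fell, Khsrp, which also binds AU-rich elements (-1.53, SE 0.45, adjusted p = 0.0315). The median of that list was 1.02, and Pabpc1, a poly(A) binding protein, was at 1.56 (SE 0.63, adjusted p = 0.0906). Its count went to 7, of which 6 rose, without pool of 20 replicate 2 and to 0 without pool of 20 replicate 3 or any 1 whole muscle library.

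Of 23 mRNAs known as targets of Zfp36 proteins, 20 were tested, 8 rose and 0 fell, with a median of 2.20. Fos, a transcription factor subunit of AP-1, was at 838 ± 644 CPM in fibers and 8.55 ± 1.24 CPM in whole muscle (6.50, SE 1.01, adjusted p = 3.77e-04). Vegfa, an angiogenic factor, rose by 1.84 (SE 0.62, adjusted p = 0.0496) and Myod1, a myogenic factor, by 2.91 (SE 0.82, adjusted p = 0.0264). Myod1 averaged 555 CPM in single fibers, 127 in pools of 5 and 8.54 in pools of 20, against 11.2 in whole muscle. Myc was also near whole muscle in pools of 20, with means of 3.44 and 3.28 CPM. The chemokine Cxcl2 had 0 reads in whole muscle and reads in 8 of 9 fiber libraries, at least 46.5-fold higher against a floor of 3 counts over the whole muscle group. Cxcl1, Plk3, Myc and Pim1 were the other genes called. The count of this list was 4 or 5 without any 1 whole muscle library. By group 6 rose and 2 fell of 12 tested in single fibers, where 33.6% of all genes were called. In pools of 5, 11 rose and 0 fell of 16, beside 8.85% of genes, and in pools of 20, 11 rose and 0 fell of 15, beside 43.9%.

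Among 13 genes for the kinases, phosphatase and 14-3-3 proteins that act on Zfp36, 3 fell and 0 rose, with a median of -0.65. Ywhaq, a 14-3-3 protein, fell by 1.70 (SE 0.46, adjusted p = 0.0215) and Mapk3 (Erk1) by 1.45 (SE 0.43, adjusted p = 0.0331). The third was Ywhah. The count was 0 without any 1 whole muscle library. Of 15 p53 targets, a group listed because Btg2 is one, 2 fell and 0 rose, again near the share of all genes, with a median of 0.00. Phlda3 fell by 2.47 (SE 0.52, adjusted p = 0.00447) and Sesn1 by 1.28 (SE 0.36, adjusted p = 0.0246), and Ccng1, the most abundant, ranged from 110 to 1156 CPM in fibers and from 975 to 1195 CPM in whole muscle. Leaving out single fiber 2 or pool of 5 replicate 3 raised this count to 5, of which 3 and 2 rose, and leaving out any 1 whole muscle library lowered it to 1.

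**Figure D4:**
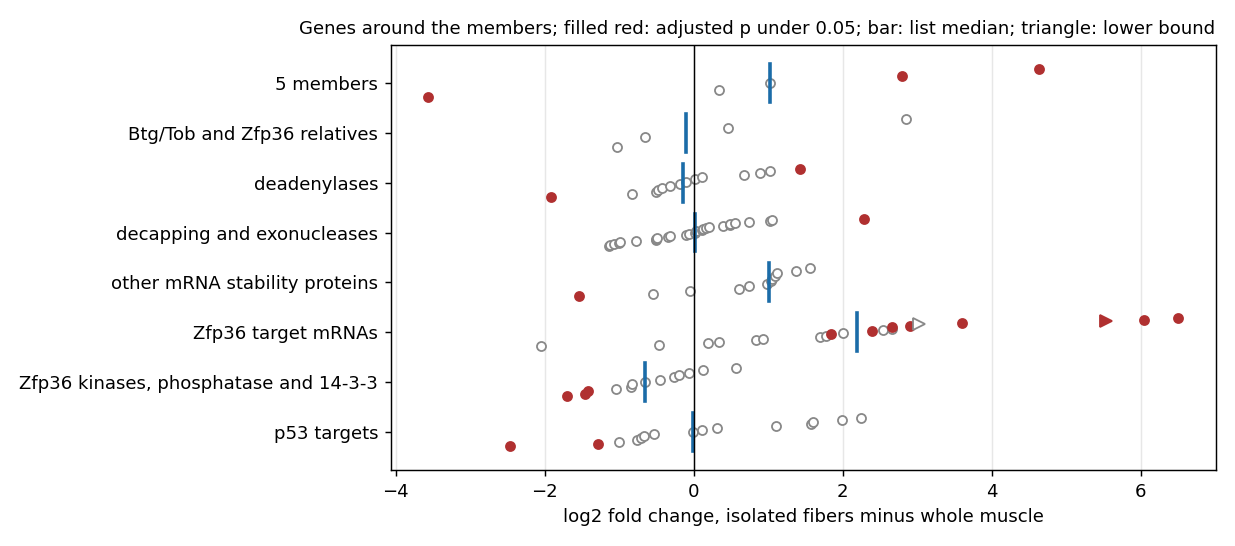
edgeR log2 fold change of isolated fibers minus whole muscle for the 5 members and for genes of 7 lists, with filled red marks for an adjusted p under 0.05, blue bars for list medians and triangles for lower bounds of genes with 0 reads in whole muscle. Zfp36 target mRNAs have a median of 2.20 with 8 of 20 called higher, while deadenylase and decapping genes have medians of -0.14 and 0.02.

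For each member the 3 protein-coding genes with the most similar profile were taken from 6035 genes that averaged at least 10 CPM, by Pearson r of log2 CPM over the 12 libraries. The points share libraries, depth and scaling, so r is given as a description. Nearest to Btg2 were Mt1, a metallothionein (r = 0.99), Otud1, a deubiquitinase (0.99), and Glul, glutamine synthetase (0.98). Mt1 averaged 3134 CPM in single fibers, 1227 in pools of 5, 257 in pools of 20 and 29.9 in whole muscle. Nearest to Zfp36 were Gadd45b, a stress response gene (0.97), Dpf3 (0.96) and Asb18 (0.95). Nearest to Zfp36l1 were Jund, a subunit of AP-1 (0.98), Ier3 (0.92) and Mepce (0.90). Jund averaged 12 CPM in single fibers, 65.1 in pools of 5, 27.7 in pools of 20 and 12.1 in whole muscle. Nearest to Btg1 were Cflar, an inhibitor of caspase-8 signaling (0.95), Dennd5a (0.93) and Ubxn4 (0.92). Nearest to Zfp36l2 were Cav1, the caveolin of endothelial cells and adipocytes (0.97), Smoc2, a matrix protein (0.96), and Ets1, a transcription factor (0.95). Cav1 averaged 229 CPM in whole muscle and 4.51 CPM in single fibers.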

How the data were processed

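The deposited table holds raw read counts per Ensembl gene for 12 libraries. Per the submitters' processing notes the tools were HISAT2, SAMtools and featureCounts on GRCm38 (mm10). Their versions, and the strand and multi-mapping settings, are not given in the sources used here. Of 55573 identifiers 55480 matched GENCODE vM21, which gave symbols, lengths and positions.

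Counts were tested with edgeR 4.0.16 in R 4.3.3 (TMM, filterByExpr, glmQLFit, glmQLFTest, Benjamini-Hochberg over all genes tested). DESeq2 1.42.0, other scalings, no filter, a replicate block and leaving out libraries were alternatives. Scaling by library totals only was chosen after seeing the data. The edgeR fits were also run on simulated counts with the same spread in every group. The real groups differed in spread, so that run does not show how far the calls hold here. Ratios used reads plus 0.5 and scipy 1.17.1. No libraries were near copies of each other.

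The members and lists were chosen with earlier results of these data known. Named genes were the 5 members and the 3 genes most like each. From each list genes were drawn from the 3 most abundant and the 2 called with the largest change, but not all of these were named. For the decapping and kinase lists only called genes were named. The other called genes of the target and kinase lists were named after their values were seen. Marker lists of lymphocytes and granulocytes, pericytes, macrophages, erythroid cells and Schwann cells were also summed: in single fibers, pools of 5, pools of 20 and whole muscle their medians were 5.01, 5.33, 6.48 and 6.35 CPM for lymphocytes and granulocytes, 12.2, 243, 37.9 and 306 CPM for pericytes, 280, 50.9, 37.4 and 430 CPM for macrophages (in single fibers mostly Cd68, mean 171 CPM, with Lyz2 at 0.544 CPM, Cd74 at 0.0989 CPM and C1qa at 0), 0.714, 386, 24.0 and 733 CPM for erythroid cells and 1.84, 4.48, 16.8 and 158 CPM for Schwann cells.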

Additional observations from a re-analysis of the deposited data

Results flagged for a closer look

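Btg2 differed between single fibers and pools of 20 by 2.71 on the log2 scale (edgeR adjusted p = 0.0189), with all 3 single fibers above all 3 pools of 20, and it is listed because 2 kinds of fiber library differed. In that comparison 36.1% of all genes tested were called. The call was lost with a replicate block, without the low-count filter and when 5 of the 6 libraries were left out one at a time.

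Btg1 lay on opposite sides of whole muscle in the 2 kinds of pool, and neither difference from whole muscle passed the test (1.30 and -0.63, edgeR adjusted p = 0.128 and 0.144). All 3 pools of 5 lay above the whole muscle mean and all 3 pools of 20 below it, with mean log2 CPM 2.23 apart. That pattern itself was not tested, and the edgeR comparison of the 2 groups gave an adjusted p of 0.530. Without pool of 5 replicates 1 and 2 the value in pools of 5 was -0.10.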

How the results depend on the processing

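Btg2 and Zfp36l2 kept their direction and their call in isolated fibers against whole muscle under all alternatives run. Scaling moved the median of all genes in that comparison from 0.40 with TMM to 0.56 with DESeq2's size factors, 0.69 with upper-quartile factors and -0.30 with library totals only, and the share of calls that were higher from 49.0% to 52.5%, 65.1% and 12.5%. The full DESeq2 fit gave 74.0%. Zfp36 lost its call in a 2-group model (2.92, adjusted p = 0.0577).

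In pools of 5 against whole muscle 4 members were called. With a replicate block 1 was called, and leaving out 1 library gave 0 to 5. Zfp36l2 lost its call there with upper-quartile factors (adjusted p = 0.0532) and in the fit of 12 libraries (0.0508). In single fibers against pools of 20, where 1 was called, the count was 2 with DESeq2's size factors, upper-quartile factors, without mitochondrial genes and Gm10800 or in a fit of 12 libraries. It was 3 with library totals only, 0 without the low-count filter, 0 with the replicate block and 0 to 1 with a library left out. In single fibers against pools of 5, where 0 were called, it was 1 without the filter, with DESeq2 and in the fit of 12 libraries, and 0 to 1 with a library left out. Zfp36l1 in pools of 20 also lost its call without the filter, with DESeq2, with the replicate block, without mitochondrial genes and Gm10800, in the fit of 12 libraries and with library totals only (0.80 to 1.15, adjusted p 0.0505 to 0.288). The Zfp36 to Zfp36l1 ratio ran from 1.33 to 1.85 with a library left out. The replicate block gave adjusted p of 0.0234, 0.0234 and 0.0938 for the 3 ratios. Of 18 pairs of libraries with the same number 3 correlated over 0.1, and 6 of 12 libraries correlated best with their own number, so the numbers were not taken as pairs.

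List counts in isolated fibers moved more. For relatives of the members, 0 became 1 with library totals only and 0 to 1 with a library left out. For deadenylases, 2 became 4 with upper-quartile factors, 5 with library totals only, 1 without the filter, 5 with DESeq2, 1 in the 2-group model and 1 to 3 with a library left out. For decapping genes, 1 became 2 with DESeq2's size factors, 4 with upper-quartile factors, 9 with library totals only, 4 with DESeq2, 5 without the high-background libraries (those with reads on over 50% of receptor genes) and 0 to 8 with a library left out. For other stability proteins, 1 (a fall) became 5 with DESeq2's size factors and 6 with upper-quartile factors, all rises, 2 falls with library totals only, 8 with DESeq2 (7 rises and 1 fall), 0 in the 2-group model, 5 without the high-background libraries and 0 to 7 with a library left out. For Zfp36 targets, 8 became 5 with library totals only, 4 in the 2-group model and 4 to 11 with a library left out. A fall, 1 gene each time, was among the calls without the filter and without single fiber 1, pool of 5 replicate 2 or pool of 5 replicate 3. Falls were also among the calls without the high-background libraries, a fit that keeps a lone pool of 5. For kinases and 14-3-3 proteins, 3 became 1 with upper-quartile factors, 8 with library totals only, 0 in the 2-group model and 0 to 4 with a library left out. For p53 targets, 2 became 5 with upper-quartile factors, 5 with library totals only, 7 with DESeq2 (3, 0 and 5 of them rises), 1 in the 2-group model and 1 to 5 with a library left out. The cause of these shifts was not tested.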
